A study of Arabidopsis thaliana with 6 samples.

Results

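The 7 genes described here are the WRKY and NAC transcription factor genes that the probe table names by symbol: WRKY6, WRKY20, WRKY22, WRKY42, WRKY47, WRKY53 and NAC014. A gene belonged to the group when a probe set pointed to it alone and its symbol was WRKY, NAC, ANAC or NTL followed by a number. They are 7 of the 13356 genes named in this way, and 7 of the 150 genes in the RefSeq gene table whose symbols have that form. RefSeq lists 67 WRKY symbols and 83 NAC, ANAC or NTL symbols among the 150, so 6 WRKY genes and a single NAC gene were measured under their names. NAC014 is therefore the only NAC gene in what follows, and the other family members were not analysed here. Each of the 7 had 1 probe set, and none carried the suffix that marks probes shared between transcripts.

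Transcripts were measured on Affymetrix arrays in whole seedlings of Arabidopsis thaliana, either the mutant esd7-1 or the wild-type accession Landsberg erecta (Ler). ESD7 encodes the catalytic subunit of DNA polymerase epsilon, which copies the leading strand during replication, and esd7-1 plants flower early. Both genotypes were 14 days old, had grown at 22 °C in pots under short days and were harvested 8 h after dawn, with 3 arrays a genotype, each from RNA of its own pool of plants. Values are RMA expression levels on the log2 scale, on which a step of 1 is a doubling. A level can be compared between arrays for a gene but not between genes. Percentiles of mean level therefore rank the signals of probe sets, not amounts of transcript. A seedling mixes many cell types, so fewer cells of a type and less RNA per cell cannot be told apart. The photosynthesis genes RCA and PSAN lay at percentiles 100 and 99.8 of mean level.

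WRKY proteins are a plant family named for an amino acid motif in their DNA-binding domain, and they bind W-box elements in the promoters of defence, senescence and nutrient genes, including those of other WRKY genes. They are sorted into groups by the number and type of these domains. NAC proteins share an N-terminal DNA-binding domain and act in stress responses, senescence, organ boundaries and wood formation, and some are held at membranes until they are released to the nucleus. In Arabidopsis the NAC factor SOG1 directs the transcriptional response to DNA damage, which makes the family of interest in a replication mutant. SOG1 and its NAC relatives in that response, ANAC044 and ANAC085, were not analysed here.

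None of the 7 genes passed the limma test of esd7-1 against Ler across all 22746 plant probe sets, in which 0% of probe sets passed at an adjusted p under 0.05. All 7 had a higher mean in esd7-1, by 0.02 to 0.21 on the log2 scale. Only 5 of 7 did so without esd7-1 replicate 1 or without Ler replicate 1. The median of the 7 differences was 0.17, against a median of 0.02 over all 13356 named genes. Of those named genes 54% had a higher mean in esd7-1, and of all plant probe sets 51.3%. Adjusted p in limma ran from 0.846 to 0.967, and no member had an unadjusted p under 0.05, which 5.78% of all probe sets had. In no member were the genotypes separated. Of all probe sets, 11.3% had every value of a genotype above or below every value of the other. With 7 genes a count of 0 is not unusual at either share.

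**Figure D1:**
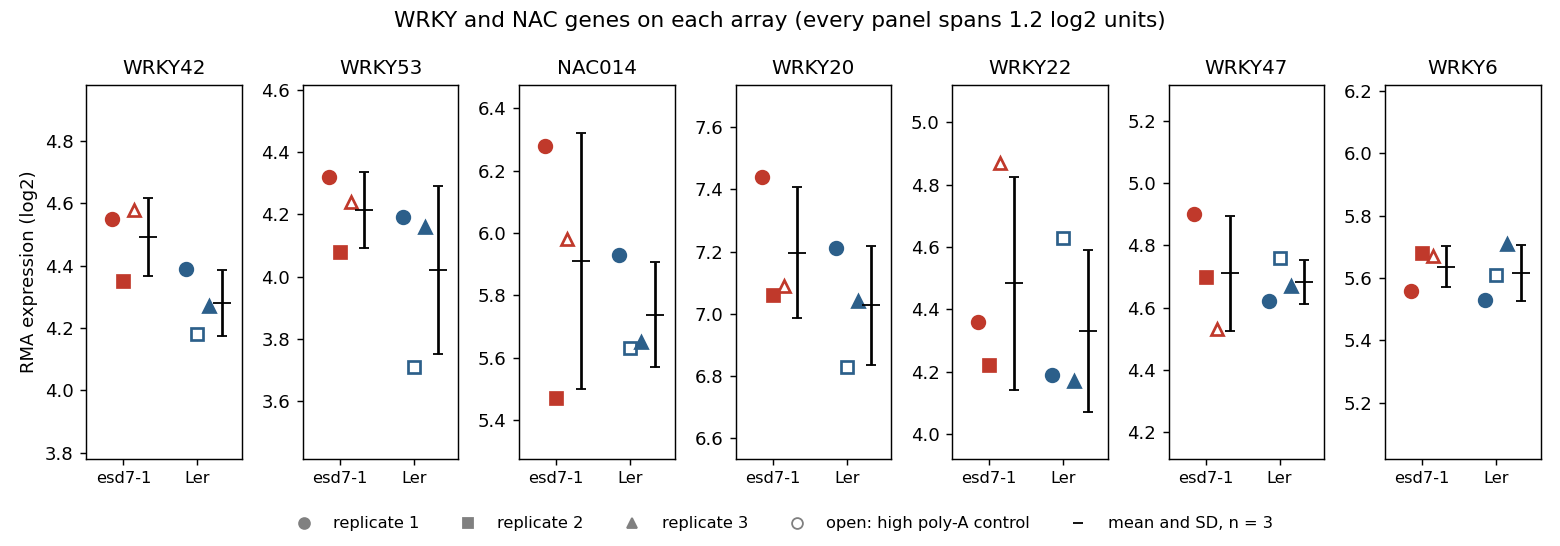
Each panel plots the RMA level (log2) of a gene on the 3 esd7-1 and the 3 Ler arrays. Marker shapes give the replicate number, open markers the 2 arrays with high poly-A controls, and the bars the mean and SD of 3 arrays. Panels span the same 1.2 log2 units, and the genotypes overlap in all 7.

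WRKY42, WRKY47 and WRKY6 belong to group IIb of the family. WRKY42 and WRKY6 are known as repressors of the phosphate exporter gene PHO1, and WRKY6 also acts in senescence and defence. WRKY42 read 4.55, 4.35 and 4.58 on esd7-1 replicates 1, 2 and 3, and 4.39, 4.18 and 4.27 on the Ler replicates. Replicates 1 and 3 of esd7-1 lay above every Ler array, while replicate 2 fell inside the Ler range. Means of 4.49 ± 0.12 for the mutant and 4.28 ± 0.11 for the wild type (SD, n = 3) gave a log2 difference of 0.21, the highest of the 7. Its standard error was 0.11, and limma's adjusted p was 0.846. Its 95% interval, -0.06 to 0.48, corresponds to 0.962-fold to 1.40-fold.

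WRKY6 was the steadiest of the 7 genes. It read 5.56, 5.68 and 5.67 in esd7-1 and 5.53, 5.61 and 5.71 in Ler, and its 6 values spanned 0.18. The highest and the lowest value both came from Ler. The genotypes differed by 0.02 (standard error 0.10), and the interval of -0.22 to 0.26 leaves changes between 0.86-fold and 1.2-fold possible. The residual spread of WRKY6 lay at percentile 10.7 of all probe sets. Its sign turned without Ler replicate 1, to -0.02.

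WRKY47, the third group IIb gene, is known from work on aluminium tolerance and cell walls. Its levels were 4.90, 4.70 and 4.53 in esd7-1 and 4.62, 4.76 and 4.67 in Ler. The mutant arrays held both the highest and the lowest of the 6 values, with the Ler arrays between them. The genotypes differed by 0.03 (standard error 0.12), at a limma adjusted p of 0.966. Without esd7-1 replicate 1 the difference was -0.07. Differences of the 3 group IIb genes thus ran from 0.02 to 0.21, and their intervals overlap.

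WRKY53, a group III gene, promotes leaf senescence. It read 4.32, 4.08 and 4.24 in esd7-1 and 4.19, 3.71 and 4.16 in Ler. The low value came from Ler replicate 2, and the other 5 arrays lay within 4.08 to 4.32. The difference was 0.19 (standard error 0.16), with a 95% interval of -0.18 to 0.57. Without Ler replicate 2 it was 0.04. Its probe set lay at percentile 34.6 of mean signal over all probe sets.

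WRKY22, of group IIe, acts with other WRKY factors downstream of mitogen-activated protein kinases in the response to microbial patterns. Its levels were 4.36, 4.22 and 4.87 in esd7-1 and 4.19, 4.63 and 4.17 in Ler. The array with the highest value in each genotype, esd7-1 replicate 3 and Ler replicate 2, lay above all 4 other arrays. The genotypes differed by 0.15 (standard error 0.21), at a limma adjusted p of 0.892. Without esd7-1 replicate 3 the difference was -0.04, and without Ler replicate 2 it was 0.30.

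WRKY20, of group I, carries a pair of WRKY domains. It read 7.44, 7.06 and 7.09 in esd7-1 and 7.21, 6.83 and 7.04 in Ler. Only esd7-1 replicate 1 lay above every Ler array. The difference was 0.17 (standard error 0.15), and its 95% interval corresponds to 0.872-fold to 1.45-fold. Without esd7-1 replicate 1 it was 0.05.

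NAC014 encodes a NAC protein of the membrane-tethered type. Its levels were 6.28, 5.47 and 5.98 in esd7-1 and 5.93, 5.63 and 5.65 in Ler. The esd7-1 arrays held the highest and the lowest of the 6 values, with an SD of 0.41, against 0.17 in Ler. The means of 5.91 and 5.74 differed by 0.17 (standard error 0.22), at a limma adjusted p of 0.884. Its 95% interval, 0.788-fold to 1.61-fold, was the widest of the 7 genes, and without esd7-1 replicate 1 the difference was -0.01.

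**Figure D2:**
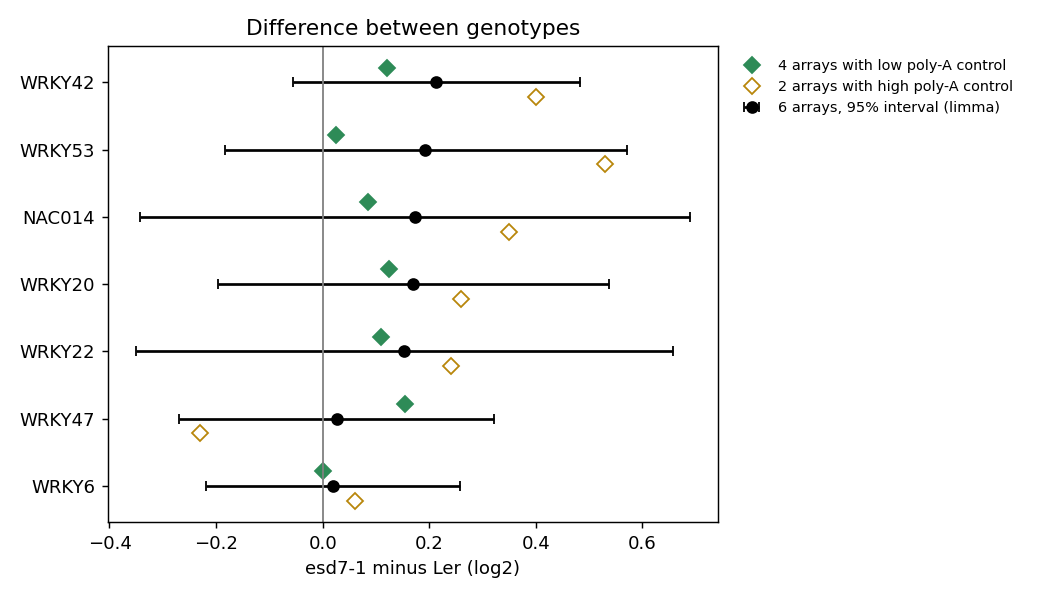
For each gene the black point is the esd7-1 minus Ler difference (log2) over 6 arrays with its 95% limma interval. Filled diamonds are the difference among the 4 arrays with low poly-A controls, and open diamonds that between the 2 arrays with high ones. All 7 intervals include 0, from 0.784-fold to 1.61-fold at their outer ends.

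Bacterial poly-A control RNA read higher on esd7-1 replicate 3 and Ler replicate 2 than on the other 4 arrays, at means of 6.53 and 7.29 against 5.74 to 5.89. WRKY22 read higher on both of them than on any other array, by 0.52 on average. That difference lay at percentile 94.6 of all plant probe sets, and 13.7% of probe sets were highest on these 2 arrays. WRKY22 was the 1 member of 7 with this pattern, a share close to that of all probe sets. The 3 root genes measured, PYK10, EXPA7 and EXPA18, averaged 7.35 and 7.0 on the same 2 arrays and 6.24 to 6.52 on the others. The mean of the leaf genes RCA and PSAN was also highest there, by less, at 13.305 and 13.355 against 13.06 to 13.275 on the others. Of these genes only RCA was highest on both arrays, since PSAN read 12.85 on esd7-1 replicate 3 and on esd7-1 replicate 1. The part of the root and leaf genes, and that of the controls, in the WRKY22 values was not tested. Among the 4 other arrays WRKY22 differed by 0.11 between genotypes, and between the 2 arrays by 0.24. With a term for the 2 arrays its standard error was 0.10, and its adjusted p was 0.571 in limma.

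WRKY20 and WRKY53 read lower on the 2 arrays by 0.23 and 0.21 on average, and the other 4 members differed there by less than 0.1. In 6 members the genotype difference was larger between the 2 arrays than among the other 4. For WRKY53 it was 0.53 between the 2 arrays and 0.03 among the other 4, and for WRKY42 it was 0.40 and 0.12. WRKY47 turned, at -0.23 between the 2 arrays and 0.16 among the other 4. For WRKY6 the values were 0.06 and 0. Each difference between the 2 arrays rests on a single array a genotype, so it has no replicate check.

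The biotin-labelled hybridisation controls, which are added after labelling and hold no plant RNA, also differed between arrays. Their means were 10.1, 9.30 and 10.3 on esd7-1 replicates 1, 2 and 3, and 9.86, 9.08 and 9.37 on the Ler replicates. The mutant arrays averaged 9.92 ± 0.55 and the wild-type arrays 9.44 ± 0.39 (SD, n = 3). WRKY42, WRKY53 and NAC014 read lowest within esd7-1 on replicate 2 and lowest within Ler on replicate 2, the arrays where these controls were lowest too. WRKY20 did the same. The gaps were small for WRKY20 in esd7-1 and for NAC014 in Ler, where replicate 3 lay only 0.03 and 0.02 above replicate 2. Of all plant probe sets, 10.8% were lowest on replicate 2 in both genotypes, as were these 4 members of 7. These 4 genes were set beside the controls after their values were seen.

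With a term for the controls in limma, a setting added once the values were known, the median of the 7 differences was 0.06 in place of 0.17. WRKY42 then differed by 0.10, WRKY53 by 0.04, WRKY20 by 0.05, WRKY22 by 0.07 and NAC014 by -0.09, each less than without the term or turned. WRKY47 and WRKY6 moved the other way, to 0.07 and 0.06. The difference between genotypes and the controls cannot be fully told apart in 6 arrays, and the controls' part in the values was not tested.

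**Figure D3:**
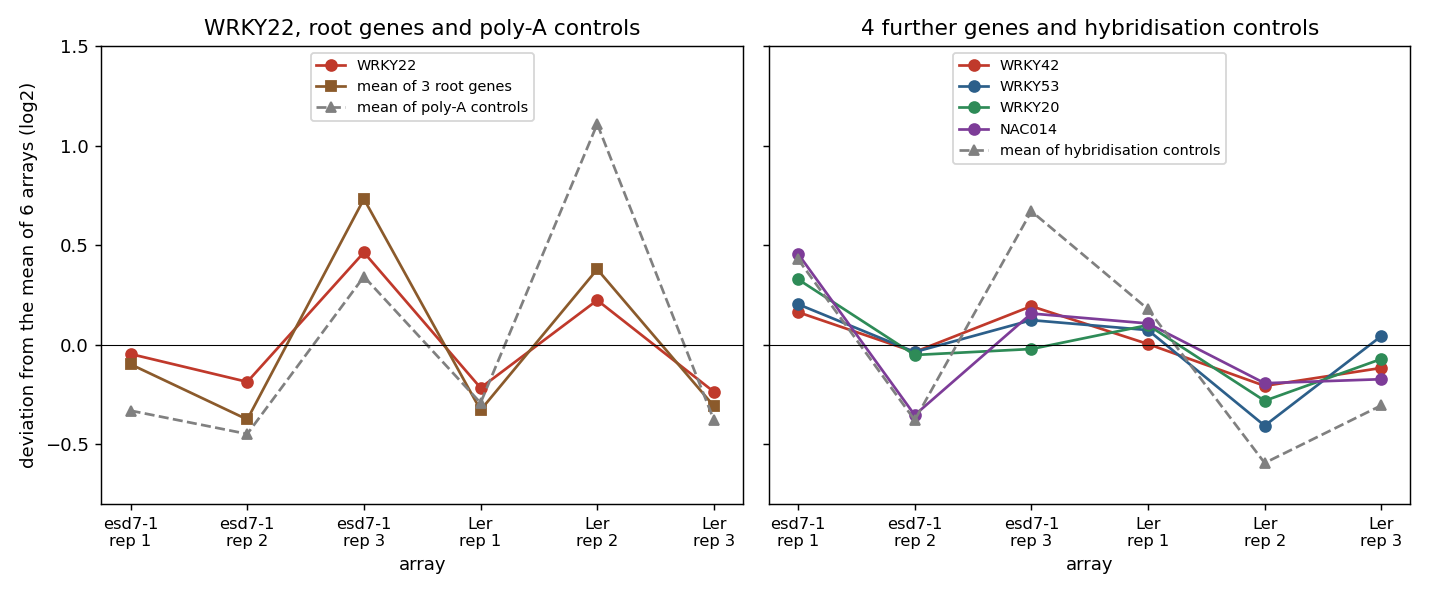
Deviation of each gene or control mean from its own mean over the 6 arrays (log2, vertical axis) for each array (horizontal axis), with lines only to guide the eye. WRKY22 and the mean of 3 root genes are highest on esd7-1 replicate 3 and Ler replicate 2, where poly-A controls read 6.53 and 7.29. In the other panel WRKY42, WRKY53, WRKY20 and NAC014 are lowest in each genotype on replicate 2, as are the hybridisation controls.

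Single arrays held many of the extreme values. In 4 members, NAC014, WRKY20, WRKY47 and WRKY53, the highest of the 6 values came from esd7-1 replicate 1, which was highest for 14.5% of all named genes. In WRKY20, WRKY42 and WRKY53 the lowest came from Ler replicate 2, which was lowest for 19.2% of named genes. Without esd7-1 replicate 1 the median of the 7 differences was 0.06, and without Ler replicate 2 it was 0.07.

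The share of probe sets with a higher mean in esd7-1 also moved with level. It was 73% between percentiles 20 and 40 of mean level, where WRKY53 lies. Between percentiles 40 and 60, where WRKY22, WRKY42 and WRKY47 lie, it was 51.3%. WRKY42 and WRKY22 lie close to the lower edge of that range, at percentiles 41.3 and 41.7. Between percentiles 60 and 80 the share was 30.9%, with a median difference of -0.11. WRKY20, NAC014 and WRKY6 lie in that range, at differences of 0.17, 0.17 and 0.02.

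The 7 genes lie on chromosomes 1 and 4. The 5 genes WRKY20 (AT4G26640), WRKY22 (AT4G01250), WRKY42 (AT4G04450), WRKY47 (AT4G01720) and WRKY53 (AT4G23810) are on chromosome 4, which holds 25 of the 150 family genes and 14.5% of the probe sets with 1 gene. WRKY6 (AT1G62300) and NAC014 (AT1G33060) are on chromosome 1. WRKY22 and WRKY47 have 71 annotated genes between them and did not share a pattern across arrays, since only WRKY22 was high on both arrays with high poly-A controls. The nearest measured gene on each side of the 7 gave 14 neighbours. Of these, 8 had a higher and 6 a lower mean in esd7-1, between -0.30 and 0.52, and the smallest adjusted p in limma was 0.846. An unadjusted p under 0.05 in limma was found for 1 of the 14, against 5.78% of all plant probe sets. That gene was AT4G04440, next to WRKY42, at a difference of 0.25. The highest difference was that of AT1G62290, next to WRKY6.

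Genes that act upstream of WRKY and NAC factors, with them or downstream of them were read from 11 lists of 170 genes. Of these, 11 genes in 7 lists were measured. None passed the limma test in either direction, and 0% of all plant probe sets did. None had an unadjusted p under 0.05 in limma, which 5.78% of all plant probe sets had. Of the 11, 9 had a higher and 2 a lower mean in esd7-1, and 54% of all named genes had a higher one. No gene of the lists for mitogen-activated protein kinases, camalexin and indole defence, secondary walls or the DNA damage response was analysed here.

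IKU1 encodes a VQ protein, a class that binds WRKY factors. It read 5.78, 5.73 and 6.30 in esd7-1 and 5.71, 6.07 and 5.65 in Ler. Like WRKY22 it was highest on the 2 arrays with high poly-A controls, as were 13.7% of all plant probe sets. A link between IKU1 and WRKY22 was not tested. Its difference between genotypes was 0.13 with a standard error of 0.19. In the salicylic acid list GRX480, a glutaredoxin, differed by 0.15 and SAG101, a lipase-like defence regulator, by 0.10. In the list for microbial patterns the receptor gene EFR differed by 0.11 and the kinase gene BIK1 by -0.17.

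SAG29, a sugar transporter gene induced in senescence, differed by -0.08, beside 0.19 for the senescence regulator WRKY53 and 0.02 for WRKY6. The mitochondrial dehydrogenase genes NDB4 and NDB2 differed by 0.17 and 0.04. COR47 and COR15A, of the drought and abscisic acid list, differed by 0.24 and 0.19. LAS, a GRAS-family gene of organ boundaries, differed by 0.09. Adjusted p in limma was 0.846 or more for each of the 11 genes. GRX480, SAG101, EFR, NDB4 and LAS lie between percentiles 20 and 40 of mean level, where 73% of probe sets had a higher mean in esd7-1. IKU1, BIK1, COR47 and COR15A lie above percentile 60, where 27.1% to 30.9% did.

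Marker genes of other tissues were read on the same arrays. The 3 root genes differed by 0.11 to 0.24 between genotypes, RCA and PSAN by -0.10 and -0.06, the trichome gene TRY by 0.09, and the guard cell lineage genes SPCH and MUTE by 0.11 and 0.01. None passed. No xylem and fibre or flower marker was analysed here.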

How the data were processed

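The authors deposited 1 log2 level for each probe set and array, and RMA and limma are named without versions per the submitters' processing notes. RMA normalizes arrays to a shared distribution, so a general shift of transcripts is removed and dim values are compressed. Genes were named from the platform's probe table, with 13513 probe sets naming 1 gene, 503 several and 8730 none, and 13436 of the 13513 matched RefSeq assembly TAIR10.1 by gene identifier. From it only names, chromosomes and gene order were used. After 64 control probe sets were set aside, 22746 were fitted with limma 3.58.1 in R 4.3.3 (genotype as the only term, two-sided, Benjamini-Hochberg over all, threshold 0.05). The fit was tested on simulated data with independent noise, no array effects and shifts larger than the members' differences. That test does not cover array effects or differences as small as those of the members.

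The members and lists were chosen with earlier results of these data known. The naming rule took members by size of difference, unadjusted p and class, which covers all 7, and up to 2 genes a list. The symbol GR1 in the probe table belongs to another locus than the listed gene and was dropped. Arrays with high poly-A controls are those whose mean over 24 such probe sets exceeded the median by more than 0.5, and hybridisation controls are 18 probe sets. Averaging a gene's probe sets changes no value, since each member has 1. Classes of WRKY and NAC genes are textbook groups. The number of arrays limits the precision. Alternatives were the replicate block, other variance models and scalings, a filter at the 40th percentile, arrays left out, array weights and terms for the controls.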

Additional observations from a re-analysis of the deposited data

How the results depend on the processing

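No member passed under any alternative. The smallest adjusted p was 0.227, for WRKY42 with array weights in limma. In that setting 2 of 7 members had an unadjusted p under 0.05, as did 4273 of all 22746 plant probe sets. Over all probe sets the count of 0 became 33 when arrays were weighted, 4 when the 2 arrays with high poly-A controls had a term, 4 when they were omitted, and 0 to 1 when any single array was omitted. The 1 came without esd7-1 replicate 3. The replicate block gave 0 calls, and the smallest adjusted p of a member in limma was 0.895. The correlation of same-numbered arrays, as deviations from their groups, was 0.54, -0.41 and -0.60 for numbers 1, 2 and 3. Higher values were found across numbers, at 0.63 for esd7-1 replicate 2 with Ler replicate 3. For esd7-1 replicate 3 with Ler replicate 2, the arrays with high poly-A controls, the value was 0.585. With so few arrays these values cannot settle whether the numbers pair the arrays. The median member difference stayed positive throughout, from 0.055 with the hybridisation term to 0.262 without Ler replicate 1. 7 settings leave every difference as it is by construction, and of the 77 values of single genes under the others, 9 changed sign. These include WRKY47 with a second quantile normalization at -0.009, WRKY6 with array weights at -0.053 and NAC014 with the hybridisation term at -0.089. The order of the genes also depended on the setting. With the second quantile normalization WRKY20 was at 0.284 and NAC014 at 0.262, above WRKY42 at 0.152. Omitting single arrays gave ranges of -0.012 to 0.393 for NAC014, -0.04 to 0.303 for WRKY22, -0.068 to 0.117 for WRKY47 and -0.023 to 0.067 for WRKY6. The cause was not tested. WRKY6 was at 0 with both arrays of high poly-A controls left out. WRKY20, WRKY42 and WRKY53 kept their sign under all settings in which the difference could change. WRKY53 was removed by the filter on dim probe sets. Probe set signals of WRKY53, WRKY22 and WRKY42, at percentiles 34.6 to 41.7, were low. Without detection calls the small differences of these genes are no evidence of constant expression.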

Other observations

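A further WRKY gene was measured under another name. ZAP1, which RefSeq gives with WRKY1 as a synonym, did not enter by symbol and was added after its values were seen. WRKY1 is a group I gene with a pair of WRKY domains, as WRKY20 is. It read 7.31, 6.60 and 6.96 in esd7-1 and 6.90, 6.95 and 6.88 in Ler. The SD was 0.36 in esd7-1 and 0.04 in Ler, and the mutant arrays held the highest and lowest values, as for NAC014. The difference was 0.05 with an adjusted p of 0.963 in limma. With ZAP1 included, the median difference was 0.16.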
